A study of Homo sapiens with 4 samples.

Results

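Short hairpin RNAs and natural microRNAs are made and used by a shared set of proteins, and the transcripts of 10 genes of that set are described here in OVCAR3 cells with and without a hairpin against the transcript ANAPC1P2. The genes were DROSHA, DGCR8, XPO5, DICER1, TARBP2, AGO1, AGO2, AGO3, AGO4 and TNRC6A. They were chosen by name, as the rows whose gene symbol is one of these, and each had 1 row among the 62696 gene rows of every library. OVCAR3 is a long-established human line of serous ovarian cancer cells.

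Of the 4 libraries of total RNA, 3 came from OVCAR3 cells labelled as carrying an shRNA knockdown of ANAPC1P2 (KD 1, 2 and 3, called Sets in the labels) and 1 from wild-type OVCAR3 cells (WT). All were grown in RPMI with fetal bovine serum. The labels do not say whether the 3 knockdown sets were separate cultures, so each p-value measures the scatter of these libraries alone, and that scatter may be technical. The spread came from the knockdown libraries alone, and the lone wild-type library was assumed to vary like them. No library was labelled as carrying a non-targeting hairpin, so that carrying any hairpin and losing ANAPC1P2 cannot be told apart. The sources used here do not give the hairpin's sequence or design.

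In the microRNA pathway, a long primary transcript is cut in the nucleus by the Microprocessor, made of the RNase DROSHA and the RNA-binding protein DGCR8. Exportin-5, encoded by XPO5, carries the hairpin to the cytoplasm together with the GTPase RAN, where DICER1, with its partner TARBP2, trims it to a duplex. One strand is loaded with the help of chaperones into an Argonaute protein (AGO1 to AGO4), and GW182 proteins such as TNRC6A link Argonaute to deadenylation and decapping of the target mRNA.

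The recovered depth was 42871815 to 56216398 counted reads in the knockdown libraries and 27868718 in WT. ANAPC1P2 itself was barely counted. Of its 2 gene rows, ENSG00000231259.5 was at 0 in all 4 libraries. In the other, ENSG00000285793.1, KD 1, 2 and 3 held 0, 8.55 and 8.89 normalized counts of it and WT 15.5, the last from 14 reads, too few to check the labels closely. Marker transcripts of blood cells stood higher in WT. Of the leukocyte markers, 8 of 8 tested were lower in the knockdown libraries (summed level 110 to 151 normalized counts against 1075), and of the erythroid markers 4 of 4 (1.55 to 3.79 against 14702). LYZ, CD68, FCGR3B, ITGAM, HBB, HBA1 and HBA2 were at 0 in every knockdown library. The sums were 2148 to 3205 against 4429 for neural markers (5 of 7 lower, 1 higher), 557 to 654 against 1814 for fibroblast markers (3 of 8 lower) and 252 to 346 against 480 for endothelial markers (1 of 5 lower), where 36.3% of all genes tested were lower. Single genes carried some sums: MAP2 made up 2079 to 3111 of the neural sum in the knockdown libraries and 1007 in WT, while NEUROD6 was at 0 against 2374. All 12 markers of the serous carcinoma line were tested and none was at 0 in WT or in all knockdown libraries (7 higher, 4 lower, summed level 117772 to 130023 against 565117, of which MUC16 alone made up 24678 to 35345 and 458890). In bulk RNA, the cells that held a transcript and its level per cell cannot be told apart. All 4 libraries are labelled as OVCAR3, and where the blood and neural transcripts counted in WT came from was not tested. The part of these transcripts in the differences described next was not tested.

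The upstream windows of 3 genes are shown because they belong to genes that differed between the groups, and because the CCAAT box, a common promoter element, is repeated in some of them. The sequences are RefSeq's 250 bases before the annotated start on GRCh38.p14, printed 5′ to 3′ on the gene's strand, with CCAAT or its reverse complement ATTGG in capitals. The windows lie at chr12:53500673-53500922 for TARBP2, chr22:20079991-20080240 for DGCR8 and chr1:35807766-35808015 for AGO4, all on the plus strand. Where RefSeq gives several windows for a gene (3 for TARBP2 and 5 for DICER1), the most upstream was used.
TARBP2: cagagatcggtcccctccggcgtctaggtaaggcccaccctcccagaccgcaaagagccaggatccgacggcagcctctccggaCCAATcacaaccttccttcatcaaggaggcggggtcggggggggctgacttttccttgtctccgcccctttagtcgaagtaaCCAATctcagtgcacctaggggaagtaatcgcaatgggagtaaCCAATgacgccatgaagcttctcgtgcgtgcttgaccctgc
DGCR8: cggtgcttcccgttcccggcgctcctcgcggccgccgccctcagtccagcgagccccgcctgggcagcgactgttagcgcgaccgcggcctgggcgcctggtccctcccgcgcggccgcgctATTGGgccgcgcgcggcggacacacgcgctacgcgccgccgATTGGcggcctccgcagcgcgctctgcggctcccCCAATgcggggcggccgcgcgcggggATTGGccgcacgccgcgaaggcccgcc
AGO4: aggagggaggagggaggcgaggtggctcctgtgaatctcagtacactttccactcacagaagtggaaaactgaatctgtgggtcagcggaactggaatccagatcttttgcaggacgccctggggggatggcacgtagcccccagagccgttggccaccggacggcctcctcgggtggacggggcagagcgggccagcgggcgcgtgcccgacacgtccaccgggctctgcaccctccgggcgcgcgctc
CCAAT was found on either strand 3 times in the TARBP2 window, 4 times in that of DGCR8 and 3 times in that of DROSHA, and not at all in those of AGO3, AGO4, DICER1 and XPO5. The AGO1 and TNRC6A windows held 1 match each. Among 35116 promoter windows of this length, 32.0% held at least 1 match and 2.93% at least 3. Under the deposited scaling TARBP2, with 3 matches, was higher, and DGCR8, with 4, was lower. AGO3 and AGO4, without a match, were lower too, and DROSHA, with 3, was not called. Whether the count is related to the differences was not tested. A match describes the letters only.

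The DGCR8 transcript is of interest for a further sequence feature, because it carries microRNA hairpins that the Microprocessor itself can cut. The mature microRNAs that RefSeq places in its exons follow, with bases 2 to 8, the seed that pairs with targets, in capitals. They lie on the plus strand at chr22:20085797-20085818 (an exon outside the coding sequence), chr22:20086072-20086093 and chr22:20086112-20086129 (both in a coding exon).
hsa-miR-3618: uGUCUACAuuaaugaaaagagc
hsa-miR-1306-5p: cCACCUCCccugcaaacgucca
hsa-miR-1306-3p: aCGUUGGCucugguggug
The 3 seeds differ from each other. The microRNA genes MIR3618 and MIR1306 themselves had 0 counted reads in all 4 libraries, a library type that does not select small RNAs.

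Under the deposited scaling, 1 of the 10 genes rose in the knockdown libraries (TARBP2), 3 fell (DGCR8, AGO3 and AGO4) and 6 did not pass the test (limma on log2 of normalized count + 1, Benjamini-Hochberg adjusted p at 0.05). So 4 of 10 were called, against 67.7% of the 23344 genes tested (31.4% higher, 36.3% lower) and 70.6% of the protein-coding ones (45.9% higher, 24.7% lower). All 10 passed the filter on low values, with 413 to 15159 reads per library. The median log2 difference of the 10 was 0.03, beside -0.28 for all genes tested and 0.28 for protein-coding genes. The knockdown libraries were all above WT for 4 of the 10 and all below it for 5, so that 9 of 10 did not overlap, against 92.3% of all genes tested. Non-overlap was therefore the usual state of a gene here and is no result about these 10.

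**Figure D1:**
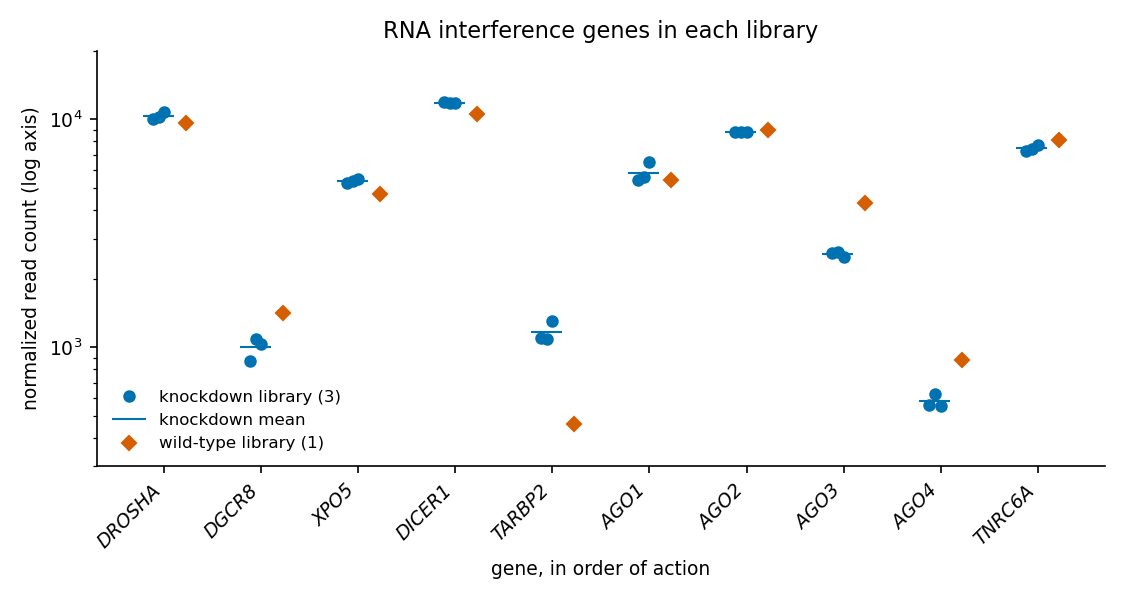
Normalized read count (log axis) of the 10 genes in each library, in order of action; circles are the 3 knockdown libraries, bars their mean and diamonds the single wild-type library. TARBP2 sits at 1088 to 1310 in the knockdown libraries against 459 in WT, and only the AGO1 circles lie on both sides of the WT value.

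Both Microprocessor genes were read in every library, and DGCR8 was the lower. DROSHA (chr5:31400497-31532196, minus strand; GENCODE 29, GRCh38) had 10045, 10218 and 10738 normalized counts in KD 1, 2 and 3 and 9672 in WT. The 3 knockdown values lay just above WT, and the log2 difference of 0.09 (95% interval -0.15 to 0.34) did not pass the test (limma, adjusted p = 0.431). DROSHA was called higher in 5 of the 14 alternative analyses and lower in 1, with equal library totals. DGCR8 (chr22:20080232-20111877, plus strand) had 873, 1090 and 1031 normalized counts against 1408 in WT. All 3 knockdown values lay below WT, at a mean of 998 ± 112 (SD, n = 3) or 70.9% of it. The log2 difference was -0.50 ± 0.15 (SE; limma, adjusted p = 0.0225). It was below 0 in all 14 alternative analyses but passed the test in 8 of them, and without KD 3 the adjusted p from limma was 0.0584.

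Within a library, the ratio of these genes does not depend on the scaling between libraries. DGCR8 made up 7.995%, 9.64% and 8.76% of the reads of the pair in KD 1, 2 and 3 and 12.7% in WT (exact binomial 95% interval 12.1 to 13.4% in WT and 9.17 to 10.1% in KD 2, the nearest knockdown library). The WT share lay above those of all knockdown libraries, outside counting error. Counting error is a narrow yardstick, since the intervals of KD 1 (7.51 to 8.51%) and KD 2 did not overlap either. DGCR8 shares 12 exonic bases with TRMT2A on the opposite strand, and the sources used here do not say whether the counting used strand. TRMT2A, a tRNA methyltransferase gene, had 692, 698 and 703 normalized counts against 824 (log2 difference -0.24, limma adjusted p = 0.0966).

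XPO5 (chr6:43522330-43576075, minus strand) encodes the exporter of hairpin RNAs. It had 5246, 5386 and 5484 normalized counts in KD 1, 2 and 3 and 4700 in WT. The knockdown values were close together and above WT, and the log2 difference of 0.19 (95% interval -0.03 to 0.42) did not pass the test (limma, adjusted p = 0.106). XPO5 was called higher in 5 of the 14 alternative analyses and lower in 1, with equal library totals. RAN, the GTPase that binds exportins with their cargo, rose from 3866 to 21949 ± 1602 normalized counts (SD, n = 3), 5.68-fold (limma, adjusted p = 6.57e-05). Per XPO5 read there were 4.37, 3.73 and 4.16 RAN reads in KD 1, 2 and 3 and 0.823 in WT. XPO5 shares 348 exonic bases with POLR1C, a gene for an RNA polymerase subunit on the opposite strand, which stood at 1651 to 1773 normalized counts against 1225.

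Of the Dicer genes, TARBP2 changed and DICER1 did not pass the test. DICER1 (chr14:95086228-95158010, minus strand) had 11889, 11780 and 11831 normalized counts in KD 1, 2 and 3 and 10527 in WT. The knockdown libraries were close together (SD 54.8, n = 3), and all lay above WT. The log2 difference was 0.17 (95% interval -0.07 to 0.41; limma, adjusted p = 0.169). It was called higher in 6 of the 14 alternatives and lower in 1, with equal library totals. DICER1-AS1, an antisense gene sharing 80 exonic bases with DICER1, was itself lower, at 66.3, 113 and 75.6 normalized counts against 342 (limma, adjusted p = 2.64e-03).

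TARBP2 (chr12:53500921-53506431, plus strand) encodes the double-stranded RNA-binding partner of Dicer. It had 1101, 1088 and 1310 normalized counts in KD 1, 2 and 3 and 459 in WT. Every knockdown library was far above WT, and the mean of 1166 ± 124 (SD, n = 3) was 2.54 times it. The log2 difference of 1.34 ± 0.14 (SE; limma, adjusted p = 3.61e-04) passed the test in the same direction in all 14 alternative analyses. Its upstream window is the one above with 3 CCAAT matches. An antisense gene without a symbol shares 16 exonic bases with TARBP2, at 24.6, 21.8 and 24.5 normalized counts against 32.2 in WT. PRKRA, the paralog that can also bind Dicer, stood at 2600, 2505 and 2668 normalized counts against 2169, which did not pass the test (log2 difference 0.26, limma adjusted p = 0.0505). It was called higher in 6 of the 14 alternative analyses (log2 difference 0.49 with TMM) and lower in 1, with equal library totals (-0.31, adjusted p = 0.0110).

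The mix of the Dicer partners differed between the groups. TARBP2 took 29.8%, 30.3% and 32.9% of the reads of TARBP2 and PRKRA in KD 1, 2 and 3 and 17.5% in WT (exact binomial 95% interval 15.9 to 19.0% in WT, and 28.3 to 31.2% in KD 1). Per DICER1 read, TARBP2 had 0.0926, 0.0924 and 0.111 reads in the knockdown libraries and 0.0436 in WT, a ratio 2.26 times as high. With 1 wild-type library these shares carry counting error and the spread of the knockdown libraries only, and no test between the groups was made.

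Among the Argonaute genes, AGO3 and AGO4 fell while AGO1 and AGO2 did not pass the test. AGO1, AGO3 and AGO4 lie next to each other on the plus strand of chromosome 1, in the order AGO4 (chr1:35808172-35857890), AGO1 (chr1:35869808-35930528) and AGO3 (chr1:35930718-36072500), and AGO2 lies apart on chromosome 8. An antisense gene without a symbol shares 86 exonic bases with AGO3. It had 13.3, 16.3 and 2.22 normalized counts in KD 1, 2 and 3 and 87.7 in WT. AGO3 had 2581, 2615 and 2477 normalized counts in KD 1, 2 and 3 and 4314 in WT. The knockdown libraries were tightly grouped far below WT, at 59.3% of it. The log2 difference was -0.75 ± 0.09 (SE; limma, adjusted p = 6.92e-04), and it passed the test in the same direction in all 14 alternative analyses.

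AGO4, which like AGO1 is not known for cutting targets, had 559, 623 and 554 normalized counts in KD 1, 2 and 3 and 876 in WT. All 3 lay below WT, at a mean of 66.0% of it. The log2 difference of -0.60 ± 0.13 (SE; limma, adjusted p = 7.43e-03) stayed below 0 in all 14 alternative analyses and passed the test in 12. It did not pass with median-of-ratios scaling (limma, adjusted p = 0.0645) or with DESeq2 (adjusted p = 0.0998).

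AGO1 had 5392, 5589 and 6472 normalized counts in KD 1, 2 and 3 and 5415 in WT. It was the only one of the 10 whose groups overlapped, with KD 1 just below WT and KD 3 well above (log2 difference 0.10, 95% interval -0.21 to 0.41; limma, adjusted p = 0.511). In the alternatives it was called higher in 4 and lower in 1, with equal library totals. AGO2, the Argonaute known for cutting perfectly paired targets such as those of a designed hairpin, had 8795, 8798 and 8779 normalized counts against 9017. The knockdown values hardly differed from each other and lay just below WT (log2 difference -0.04, 95% interval -0.27 to 0.19; limma, adjusted p = 0.745). Its sign changed with the scaling (0.20 with TMM).

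The composition of the Argonaute reads, taken from the same counts, is free of scaling within each library. Shares sum to the whole, so lower shares of AGO3 and AGO4 force those of AGO1 and AGO2 up together. AGO3 held 14.9%, 14.8% and 13.5% of the 4 genes' reads in KD 1, 2 and 3 and 21.99% in WT. AGO4 held 3.23%, 3.54% and 3.03% against 4.47%, while AGO2 held 50.8%, 49.9% and 48.0% against 46.0% and AGO1 31.1%, 31.7% and 35.4% against 27.6%. The shares of AGO3 and AGO4 were thus higher in WT than in any knockdown library, and those of AGO1 and AGO2 lower. The exact binomial 95% interval was 21.4 to 22.6% for AGO3 in WT and 14.4 to 15.4% in KD 1. Knockdown libraries also differed from each other beyond counting error, as for AGO1 in KD 1 (30.4 to 31.8%) and KD 3 (34.7 to 36.1%). The sources used here do not say how reads matching more than 1 of these paralogs were counted.

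**Figure D2:**
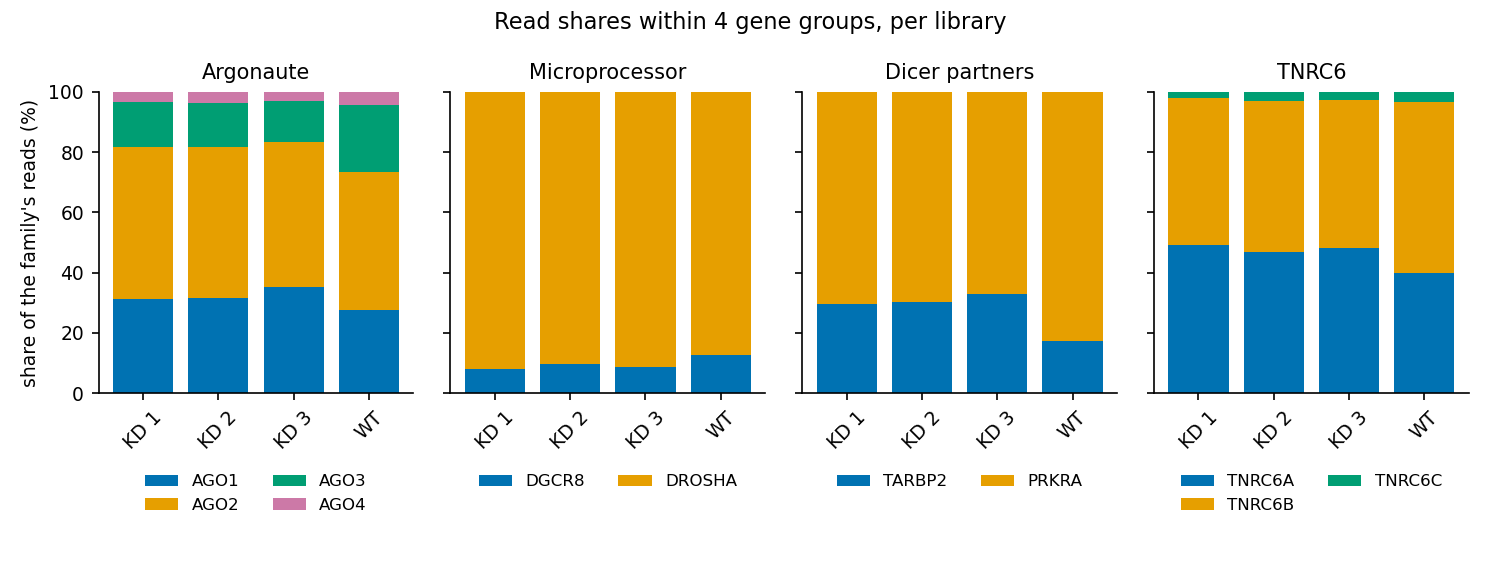
Share of reads (%, stacked bars to 100) within 4 groups of related genes, in each knockdown library (KD 1 to 3) and the single wild-type library (WT). The AGO3 band is 13.5 to 14.9% in the knockdown libraries and 21.99% in WT, and the TARBP2 band 29.8 to 32.9% against 17.5%.

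TNRC6A (chr16:24610209-24827632, plus strand) is the GW182 protein gene of the 10. It had 7244, 7411 and 7724 normalized counts in KD 1, 2 and 3 and 8101 in WT. All 3 lay below WT by a small margin (log2 difference -0.12, 95% interval -0.36 to 0.12; limma, adjusted p = 0.308), and the sign turned with TMM (0.11). Its paralog TNRC6B fell from 11540 to 7702 ± 428 normalized counts (SD, n = 3; log2 difference -0.58, limma adjusted p = 3.80e-03). TNRC6C was the scarcest, at 295, 462 and 426 normalized counts against 703 (log2 difference -0.86, limma adjusted p = 0.0243). TNRC6C did not pass in 5 of the 14 alternatives, without KD 3 (adjusted p = 0.0640) and with no filter or 3 of the 4 other scalings (adjusted p = 0.0534 to 0.169). TNRC6A took 49.1%, 46.7% and 48.1% of the reads of the 3 paralogs in KD 1, 2 and 3 and 39.8% in WT.

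Because the scaling sets the zero, the 10 genes were also set against the median protein-coding gene of the same analysis. Against the deposited scaling, equal library totals moved the median of all genes by -0.62 (log2), TMM by 0.26, median-of-ratios by 0.31 and upper-quartile scaling by 0.24. Relative to the protein-coding median, TARBP2 was 1.04 to 1.07 higher over the 5 scalings and the other 9 were lower. They ran from XPO5 (-0.10 to -0.08) through AGO2 (-0.33 to -0.30) to DGCR8 (-0.80 to -0.77), AGO4 (-0.89 to -0.87) and AGO3 (-1.05 to -1.02). A rescaling moves a gene and that median nearly alike, so these narrow ranges follow from the arithmetic. The filter on low values moved them more. With no filter, XPO5 (0.06) and DICER1 (0.03) lay above the median. With a mean of at least 50, TARBP2 was at 0.92 and AGO3 at -1.17. The distance to zero itself changed sign with the scaling for DROSHA, XPO5, DICER1, AGO1, AGO2 and TNRC6A. With equal totals, 9 of the 10 were called lower and 1 higher, where 53.1% of all genes were called lower and 19.6% higher. Of protein-coding genes, 44% were then lower and 29.3% higher. With TMM, 5 of the 10 were called higher and 2 lower, against 37.5% and 29.4% of all genes. The protein-coding shares with TMM were 54.3% and 18.8%.

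**Figure D3:**
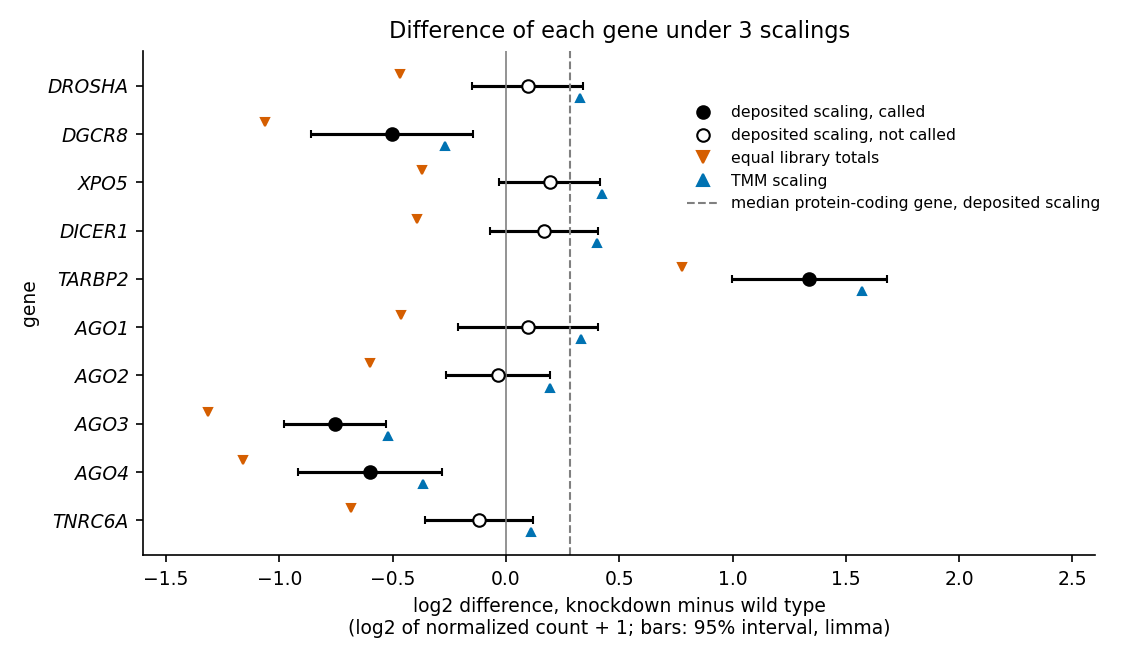
Log2 difference (knockdown minus wild type) of each gene with the deposited scaling (circles, filled where called, with 95% intervals from limma), with equal library totals (downward triangles) and with TMM (upward triangles). TARBP2 lies above 0 and DGCR8, AGO3 and AGO4 below it under all 3, while 6 genes cross from one side to the other.

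Per kilobase of exon, DROSHA was the most abundant of the 10 in both groups and DICER1 the next. In the knockdown libraries the mean normalized counts per kilobase ran from DROSHA (1328), DICER1 (963), XPO5 (630), TNRC6A (577), AGO2 (555), AGO1 (419) and TARBP2 (285) down to DGCR8 (136), AGO3 (121) and AGO4 (79.6). The ranges of neighbours in this order overlapped for DGCR8 and AGO3 alone. In the single WT library, TARBP2 stood at 112 per kilobase (exact Poisson 95% interval 102 to 124, counting error only) and AGO4 at 121 (112 to 129), so that their order cannot be told. AGO3 (204, 198 to 210) and DGCR8 (193, 182 to 203) overlapped as well, as did AGO2 (569) and XPO5 (552). TARBP2 was thus among the lowest of the 10 in WT and stood above DGCR8, AGO3 and AGO4 in every knockdown library.

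The differences also followed gene length across all genes. Protein-coding genes were split into 5 equal groups by exonic length, and the median log2 difference was 0.73 in the shortest group and -0.10 in the longest (8.25 to 119 kb). TARBP2, with 4.09 kb the shortest of the 10, lay in the second-shortest group (median 0.51, upper quartile 1.27) and above its upper quartile. XPO5, DICER1, AGO1, AGO2, AGO3 and TNRC6A lay in the longest group. AGO3, at 21.2 kb the longest of the 10, was near that group's lower quartile of -0.76. XPO5 (0.19), DICER1 (0.17), AGO1 (0.10) and AGO2 (-0.04) lay above that group's median, though below the median of all protein-coding genes (0.28). TNRC6A (-0.12) lay just below that group's median. DROSHA, DGCR8 and AGO4 lay in the second-longest group (median 0.18, lower quartile -0.52), with AGO4 below that quartile and DGCR8 just above it. DROSHA (0.09) lay below the median of its group. The part of length in these differences was not tested.

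**Figure D4:**
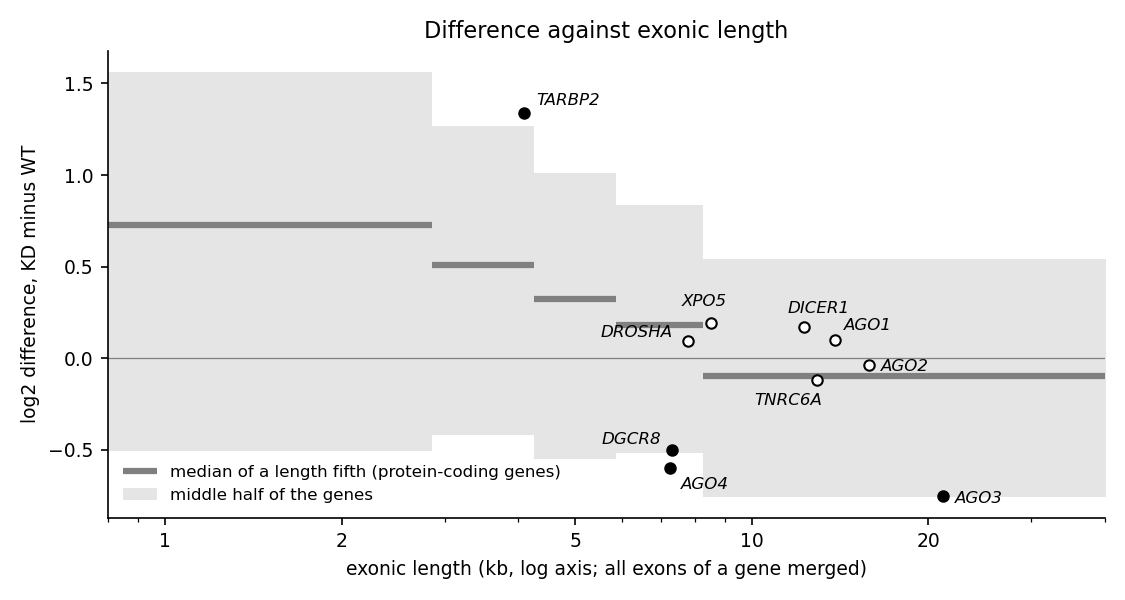
Log2 difference (knockdown minus wild type) of the 10 genes against exonic length (kb, log axis; filled circles called, open not called), over the median (bars) and the middle 50% (grey) of protein-coding genes in each of 5 length groups. The axis leaves out the ends of the outer groups. The group medians run from 0.73 to -0.10, with TARBP2 above and AGO4 below the grey band of its own group.

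The other genes of the pathway were taken from a list of 81. Of the 79 tested, 49 rose, 12 fell and 18 did not pass the test, with a median log2 difference of 0.71 beside 0.28 for protein-coding genes, of which 45.9% rose and 24.7% fell. With equal library totals 37 were higher and 27 lower, against 29.3% and 44% of protein-coding genes, and with TMM 58 and 8, against 54.3% and 18.8%. The counts by role that follow are read against the same shares. Members of this list were picked by role and not by response, but with earlier results of these data known.

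Upstream of Dicer, 8 of 12 Microprocessor cofactors rose, 1 fell and 3 did not pass, and all 5 export and import genes rose (4 of 5 with equal library totals), where 45.9% of protein-coding genes rose. ERH, a small cofactor that binds DGCR8, rose 5.94-fold (12003 ± 902 normalized counts against 2019; limma, adjusted p = 6.57e-05). The helicase gene DDX17 was the one that fell, to 78.1% of WT (log2 difference -0.36, limma adjusted p = 0.0333). DDX17 did not pass in 8 of the 14 alternatives, among them those without KD 1 (adjusted p = 0.135) or KD 2 (adjusted p = 0.0713) and median-of-ratios scaling (-0.08, adjusted p = 0.540). With equal totals 6 of the 12 cofactors were called higher and 4 lower, where 29.3% and 44% of protein-coding genes were.

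Of the Dicer and loading cofactors, 9 of 11 rose, 1 fell and 1 (PRKRA) did not pass, against 45.9% of protein-coding genes higher and 24.7% lower. Their median log2 difference was 1.51. HSPA8, the constitutive HSP70 chaperone that helps load Argonaute, rose 5.91-fold, from 23260 to 137480 ± 10630 normalized counts (SD, n = 3; limma, adjusted p = 9.22e-05). With equal library totals 9 of the 11 were higher and 2 lower. ADARB1, an RNA-editing deaminase, was lower, at 72.9% of WT (log2 difference -0.46, limma adjusted p = 0.0278). ADARB1 did not pass in 7 of the 14 alternatives, among them those without KD 1 (adjusted p = 0.0794) or KD 2 (adjusted p = 0.0815) and median-of-ratios scaling (-0.18, adjusted p = 0.273). RAN, ERH and HSPA8 have processed pseudogenes, so that the same doubt over shared reads applies to them.

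Downstream of Argonaute, 12 of 15 deadenylation genes rose, 1 fell and 2 did not pass, where 45.9% of protein-coding genes rose. With equal library totals 8 of the 15 were higher and 4 lower, where 29.3% and 44% of protein-coding genes were. CNOT7, a catalytic subunit of the CCR4-NOT complex, rose 3.29-fold (15576 ± 1264 normalized counts against 4734; limma, adjusted p = 9.84e-05). PAN2, of the other deadenylase complex, fell to 675 ± 54.9 from 1352 (log2 difference -1.003, limma adjusted p = 9.22e-04). Of the decapping genes, 5 of 10 rose, 1 fell and 4 did not pass. Under the deposited scaling that share of rises was near the 45.9% of protein-coding genes. With equal totals 3 were higher and 5 lower. With TMM 9 were higher and 0 lower, where 54.3% and 18.8% of protein-coding genes were. The helicase gene DDX6 rose 2.43-fold (limma, adjusted p = 1.60e-04). EIF4ENIF1, whose product links DDX6 to the cap-binding protein, was at 79.1% of WT (log2 difference -0.34, limma adjusted p = 0.0229). It did not pass in 6 of the 14 alternatives, among them the one without KD 1 (adjusted p = 0.0734) and median-of-ratios scaling (-0.06, adjusted p = 0.616).

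Of 15 Argonaute partners and turnover genes, 7 rose, 4 fell and 4 did not pass (5 higher and 7 lower with equal totals). These shares were near those of protein-coding genes, 45.9% higher and 24.7% lower. ERI1, a 3′ exonuclease, rose 3.22-fold (limma, adjusted p = 6.98e-05), and RBM4, an RNA-binding protein gene, fell to 45.8% of WT (log2 difference -1.14, limma adjusted p = 1.37e-03). Of 6 uridylation and LIN28 genes, 2 rose and 2 fell (1 and 3 with equal totals). LIN28B, which blocks let-7 maturation, had 188, 120 and 138 normalized counts in KD 1, 2 and 3 and 15.5 in WT, where 14 reads were counted (ratio 9.44, 95% interval 5.57 to 17.4 for counting error only). DIS3L2, the exonuclease for uridylated precursors, fell from 1908 to 1143 ± 81.9 (log2 difference -0.74, limma adjusted p = 2.08e-03).

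**Figure D5:**
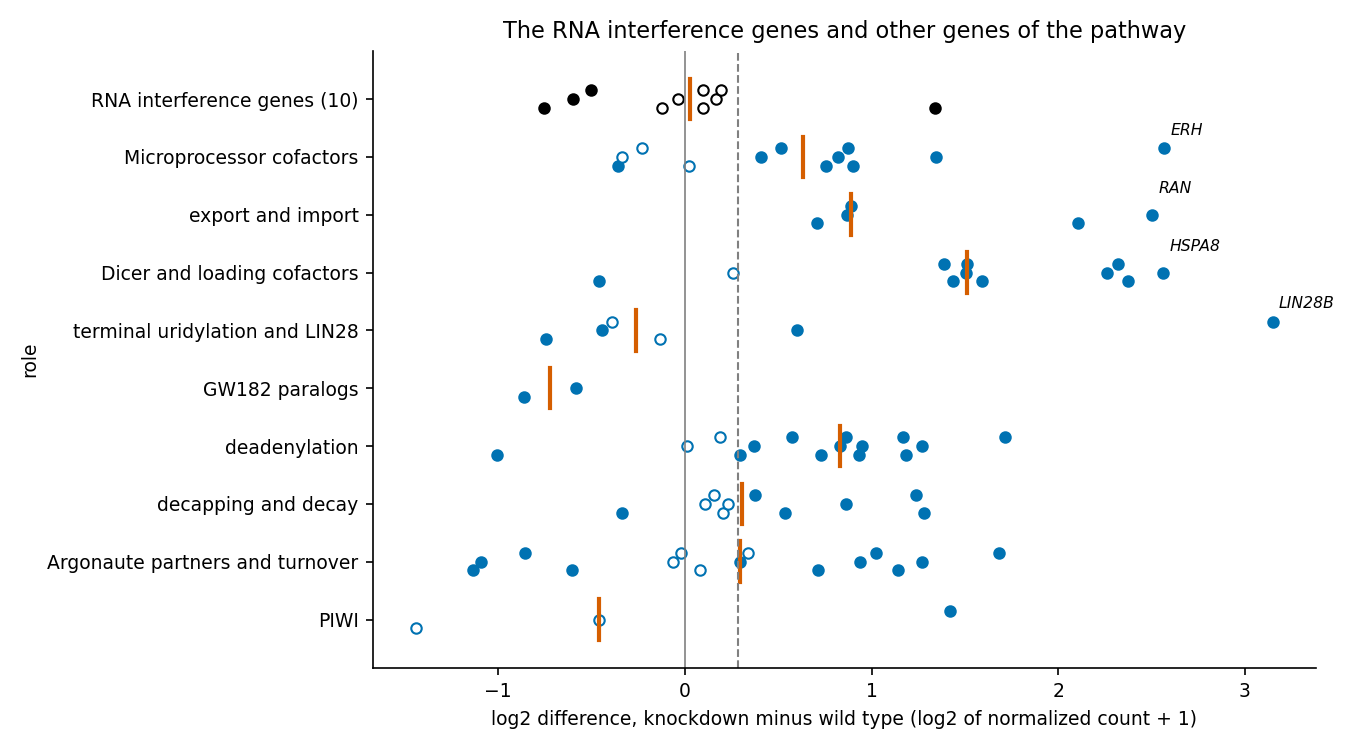
Log2 difference (knockdown minus wild type) of the 10 genes (black) and of 79 tested genes of the pathway by role (blue); filled circles are called and open ones not, orange bars are medians, and the dashed line is the median protein-coding gene. The median is 0.03 for the 10 genes and 1.51 for the Dicer and loading cofactors, which include chaperone genes.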

How the data were processed

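Total RNA from 3 knockdown libraries and 1 wild-type library of OVCAR3 was depleted of ribosomal RNA before library preparation, per the labels' protocols. Per the submitters' processing notes, the tools were STAR 2.7.11b, featureCounts 2.0.6 and DESeq2, on hg38. The sources used here do not give the annotation release, the strand setting or the handling of multi-mapping reads. The signal values the authors deposited are normalized read counts per gene. In each library 100% of them were whole multiples of 1 step within 0.001 reads, so read counts were recovered from the deposited values. The exact intervals of shares and of counts per kilobase, and that of the LIN28B ratio, cover counting error only. Those of log2 differences came from limma and use the spread of the knockdown libraries.

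Genes averaging 10 or more normalized counts over the libraries were tested with limma-trend (limma 3.58.1, R 4.3.3) on log2(value + 1), two-sided, with Benjamini-Hochberg adjustment over all 23344 genes and a threshold of 0.05. Differences on this scale understate the change of low genes. The fit was also run on simulated data, with the wild-type library drawn at the spread of the knockdown libraries. That run could therefore not check the assumption that wild type varies like them. The 14 alternatives were other scalings, pseudocounts and filters, protein-coding genes only, edgeR 4.0.16 and DESeq2 1.42.0 on recovered reads, and leaving out each knockdown library. Lengths and positions came from GENCODE 29, where 92.9% of gene identifiers were found, and sequences from RefSeq.

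The members and lists were chosen with earlier results of these data known. Named were all 10 genes, TNRC6B, TNRC6C and PRKRA, and per role the called genes of largest rise and fall with a mean of at least 100. Some of the genes overlapping a member were described as well. RefSeq promoter windows were matched for 9 of the 10 genes, AGO2 excepted.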

Additional observations from a re-analysis of the deposited data

How the results depend on the processing

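TARBP2 stayed higher and AGO3 lower, both called, under all 14 alternatives. Counts over all genes moved with equal totals (4701 higher, 12751 lower), with a mean of at least 50 (5086 lower) and with protein-coding genes only (3710 lower). Of the 10 genes, 5 were called higher with TMM, median-of-ratios, upper-quartile scaling and DESeq2, 4 with edgeR and 2 with no filter. Of protein-coding genes, 54.3%, 55.2%, 53.2%, 50.5%, 50.7% and 32.8% were called higher in that order. Lower calls numbered 9 with equal totals and 1 with median-of-ratios and with DESeq2, where 44%, 17.8% and 16.5% of protein-coding genes were lower. Leaving out a knockdown library gave 2 to 3 lower calls, where 20% to 22.9% of protein-coding genes were lower. Pathway genes called lower numbered 27 of 79 with equal totals and 7 with median-of-ratios and upper-quartile scaling. The protein-coding shares there were 44%, 17.8% and 19.1%. The median of the 10 was -0.53 with equal totals, 0.26 with TMM, 0.31 with median-of-ratios, 0.24 with upper-quartile scaling, 0.16 with edgeR and 0.25 with DESeq2, and ran from -0.0079 (without KD 3) to 0.039 when a library was left out. With equal totals DROSHA (-0.47), XPO5 (-0.37), DICER1 (-0.39), AGO1 (-0.46) and PRKRA (-0.31) reversed. With TMM, median-of-ratios, upper-quartile, edgeR and DESeq2 in that order, AGO2 was 0.20, 0.24, 0.18, 0.10 and 0.19 and TNRC6A 0.11, 0.16, 0.10, 0.016 and 0.11. Per kilobase of exon, the share differences were -5.58 points for AGO3, -2.61 for AGO4 and -1.46 for TNRC6C. Of the single-gene values of the 10, 96 of the 140 kept their direction and their side of the threshold, 22 came to pass it, 8 no longer passed and 14 reversed. The cause was not tested. No paired analysis was possible because the single wild-type library carries no set number. One wild-type library, without a repeat, limits every comparison.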

Other observations

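Of the PIWI list, the PIWIL genes, which act mainly in the germ line, had few or no reads. PIWIL3 had 0 reads in all 4 libraries and PIWIL1 none in the knockdown libraries and 1.11 normalized counts in WT. PIWIL2 had 40.8, 20.2 and 13.3 normalized counts in KD 1, 2 and 3 and 31.1 in WT, with the groups overlapping, and PIWIL4 had 5.69, 21.8 and 7.78 against 28.9, all below WT. Neither passed the test (limma, adjusted p = 0.561 and 0.152). HENMT1, the methyltransferase that protects the 3′ ends of PIWI-bound RNAs, rose 2.703-fold, from 290 to 784 ± 125 normalized counts (SD, n = 3; limma, adjusted p = 1.08e-03).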
